A study of Mus musculus with 6 samples.

Results

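Imprinted genes are expressed from the copy inherited from a single parent, and the group described here is Mest with 9 other imprinted genes that are active in brain: Peg3, Ndn, Snrpn, Plagl1, Dlk1, Meg3, Grb10, Nnat and Cdkn1c. Mest was picked because its value was higher in knockout hippocampus, so its knockout and wild-type levels are a description and carry no test. The other 9 genes were named for being imprinted. Every probe set (a group of short probes read together as a value for a transcript) that the platform annotation gives exactly 1 of these symbols was taken. All 10 genes were found, of 18194 genes with such a probe set, and they had 36 of the array's 45101 probe sets. Of the 36, 30 passed the filter on low values and were tested, and 6 did not: 3 of Ndn, 2 of Peg3 and 1 of Plagl1.

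The groups were 3 samples of hippocampus from inhibitor-1 knockout mice and 3 from wild-type mice, each measured as total RNA on 1 one-colour Affymetrix array. Inhibitor-1, the product of Ppp1r1a, restrains protein phosphatase 1 once protein kinase A has phosphorylated it, and the comparison asks which transcripts differ when it is missing. The labels name genotype, tissue and a replicate number, and give no sex, age, strain, targeting construct or source animal, so p-values cover the spread among these samples alone, and that spread may be technical. Ppp1r1a itself fell by 4.93 on the log2 scale in knockout (limma adjusted p = 3.58e-07), at 272.5, 248.5 and 347.2 in the knockout samples, against 9061, 8370 and 10345 in the wild-type samples.

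Imprinting is set by DNA methylation that is laid down differently in egg and sperm and kept at control regions through the divisions of the early embryo. ZFP57, a zinc-finger protein that binds a short methylated motif, is known to hold that methylation in place at many such regions. Many imprinted genes act in growth of the embryo and placenta, and several remain strongly expressed in neurons. They lie in clusters, in which paternally and maternally expressed genes sit side by side. Nothing in these arrays separates the parental copies, so every value is the sum over both.

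Mest has RefSeq transcript starts at separate places on mouse chromosome 6, and their upstream sequences differ in a feature tied to imprinting. They are shown because the gene's level on the array sums over all transcripts its probes detect. Both are the 250 bases before the start (RefSeq, assembly GRCm38.p6), written 5′ to 3′ in lower case, with each match to the ZFP57 motif TGCCGC or its reverse complement GCGGCA in capitals.
Mest upstream start, chr6:30733256-30733505, plus strand: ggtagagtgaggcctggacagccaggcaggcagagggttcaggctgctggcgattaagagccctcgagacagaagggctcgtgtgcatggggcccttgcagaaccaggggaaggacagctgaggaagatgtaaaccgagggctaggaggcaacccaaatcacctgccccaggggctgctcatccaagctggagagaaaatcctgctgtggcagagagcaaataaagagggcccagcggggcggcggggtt
Mest downstream start, chr6:30737800-30738049, plus strand: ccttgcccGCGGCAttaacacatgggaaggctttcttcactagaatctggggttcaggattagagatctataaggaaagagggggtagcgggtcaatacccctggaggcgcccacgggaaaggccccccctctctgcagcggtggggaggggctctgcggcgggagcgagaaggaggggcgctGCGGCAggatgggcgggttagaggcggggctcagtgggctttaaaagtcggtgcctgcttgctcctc
The stretch before the upstream start held 7 CpG dinucleotides and 0 matches, and the stretch before the downstream start held 14 CpG and 2 matches. Another RefSeq start of Mest lies 3 bases from the downstream start and shares nearly all of its window.

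Matches were also present near starts of 5 other genes of the group. Each is shown with 12 bases on either side, on the strand of its gene, with the motif in capitals, to let the letters around the motif be compared.
Nnat, chr2:157560093-157560122, plus strand: gccaccggggctGCGGCAttgcgcccagca
Snrpn, chr7:60005184-60005213, minus strand: gacccctgcattGCGGCAaaaatgtgcgca
Plagl1, chr10:13090730-13090759, plus strand: ctggcgtgttgcGCGGCAaagcccacggca
Grb10, chr11:12037379-12037408, minus strand: gggtgcggggagGCGGCAggaagggaaggg
Meg3, chr12:109540794-109540823, plus strand: gccaggggcactGCGGCAgatttttttttc
The windows searched ran from 250 bases before to 50 bases after each start, on both strands. Of the 9 genes with a window in the RefSeq table, 6 held the motif in at least 1 window (66.7%), against 3527 of all 27025 genes in the table (13.1%). Cdkn1c had no window there. A gene with several windows, such as Snrpn, has more places for a match, which the share by gene does not allow for. By window the shares were 7 of 16 (43.8%) and 3813 of 32851 (11.6%). The motif contains a CpG, and the windows of the group held a median of 10 CpG, against 7 over all windows. Among windows with at least 10 CpG, which is the group's own median, the motif was in 6 of 8 of the group (75.0%), against 22.5% of all such windows. The nearly identical windows of the neighbouring Mest starts hold the same matches. They count separately in both shares by window, which raises them, while the share by gene counts Mest once. The match lay as GCGGCA on the gene's own strand in each sequence shown. The PLAGL1 motif GGGGCCCC, which is its own reverse complement, was in 1 of the 16 windows (6.25%), that of Peg3, against 1.08% of all windows. A match is a description of the letters and no evidence that a protein binds there.

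Values below are intensities on the authors' deposited linear scale. A log2 change is knockout minus wild type on log2(intensity + 16), which understates changes of dim probe sets, and SE is its standard error in limma. With the top and bottom 2% of values trimmed, each of the 6 arrays had a mean of 2500 and so shared a common scaling. The arrays' median intensity was 541.5 to 666.0 in knockout and 573.8 to 642.4 in wild type. All 10 hippocampal neuron markers listed (among them Prox1 of granule cells and Wfs1 of CA1 cells) passed the filter, with a median log2 change of 0.01. Of 10 hypothalamus markers 4 passed it, Pmch, Trh, Hdc, Nkx2-1 and Sim1 did not, and Agrp was matched to no probe set here.

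None of the 29 tested probe sets other than that of Mest passed the threshold, a limma p under 0.05 after Benjamini-Hochberg adjustment over all 26999 tested probe sets. Over all of those, 0 passed as higher in knockout (0%) and 3 as lower (0.0111%), Ppp1r1a among them. At an unadjusted limma threshold of 0.05, 1 of the 29 was higher, Cdkn1c, and 0 were lower, where 2.17% of all tested probe sets were higher and 2.21% lower. Of the 29, the 3 knockout values all lay above the 3 wild-type values for Cdkn1c, and all below for a probe set each of Snrpn and Dlk1, where 4.97% of all tested probe sets lay above and 4.91% below. The median log2 change of the 29 was -0.04, against 0.00 over all tested probe sets, with 9 above 0 and 20 below; with Mest it was -0.03. With the brightest probe set of each of the 10 genes alone, the median was -0.02, with 3 above 0 and 7 below.

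**Figure D1:**
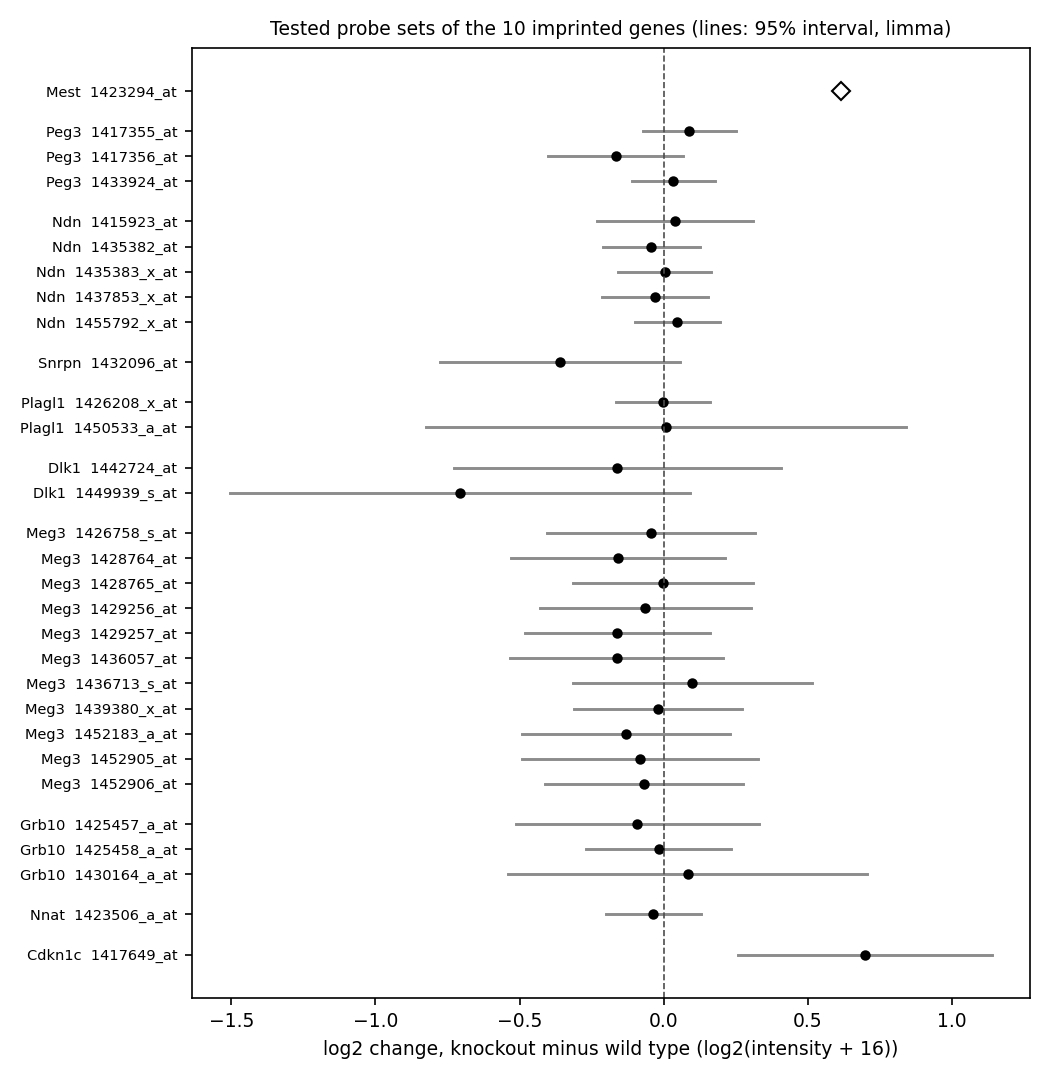
Log2 change, knockout minus wild type, of the 30 tested probe sets of the 10 imprinted genes, with lines for the 95% interval of limma. The interval of Cdkn1c lies wholly above 0 before adjustment for the 26999 probe sets tested, the other intervals include 0, and Mest is drawn as an open diamond without interval because it was picked from this contrast.

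Mest is a paternally expressed gene whose product resembles enzymes of the alpha/beta hydrolase family. Its only probe set, 1423294_at, had 4408, 5222 and 4070 in knockout samples, against 3394, 2956 and 2587 in wild-type samples. All 3 knockout values were above all 3 wild-type values, and the lowest knockout and the highest wild-type value were 4070 and 3394. The means were 4567 ± 592 in knockout and 2979 ± 404 in wild type (SD, n = 3 each), a log2 change of 0.61 or 1.53-fold. Of all tested probe sets, 477 had a log2 change at least as high (1.77%). Leaving out any of the arrays in turn gave log2 changes of 0.51 to 0.71. Copg2, a listed gene of the same cluster, had 8803, 8468 and 10113 in knockout samples, against 8895, 9355 and 10187 in wild-type samples. The groups overlapped there, with a log2 change of -0.06 (SE 0.09). Klf14, also listed for this cluster, did not pass the filter.

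Cdkn1c, which encodes the cyclin-dependent kinase inhibitor p57Kip2 and is expressed from the maternal copy, had the highest log2 change of the 30 probe sets. Probe set 1417649_at had 1636, 1896 and 2195 in knockout samples, against 1045, 1448 and 1035 in wild-type samples. The groups did not overlap. The log2 change was 0.70 (SE 0.20, 95% interval 0.26 to 1.14), with a adjusted p = 0.988 in limma, so it did not pass. A change this high or higher was found for 328 of the tested probe sets (1.21%).

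**Figure D2:**
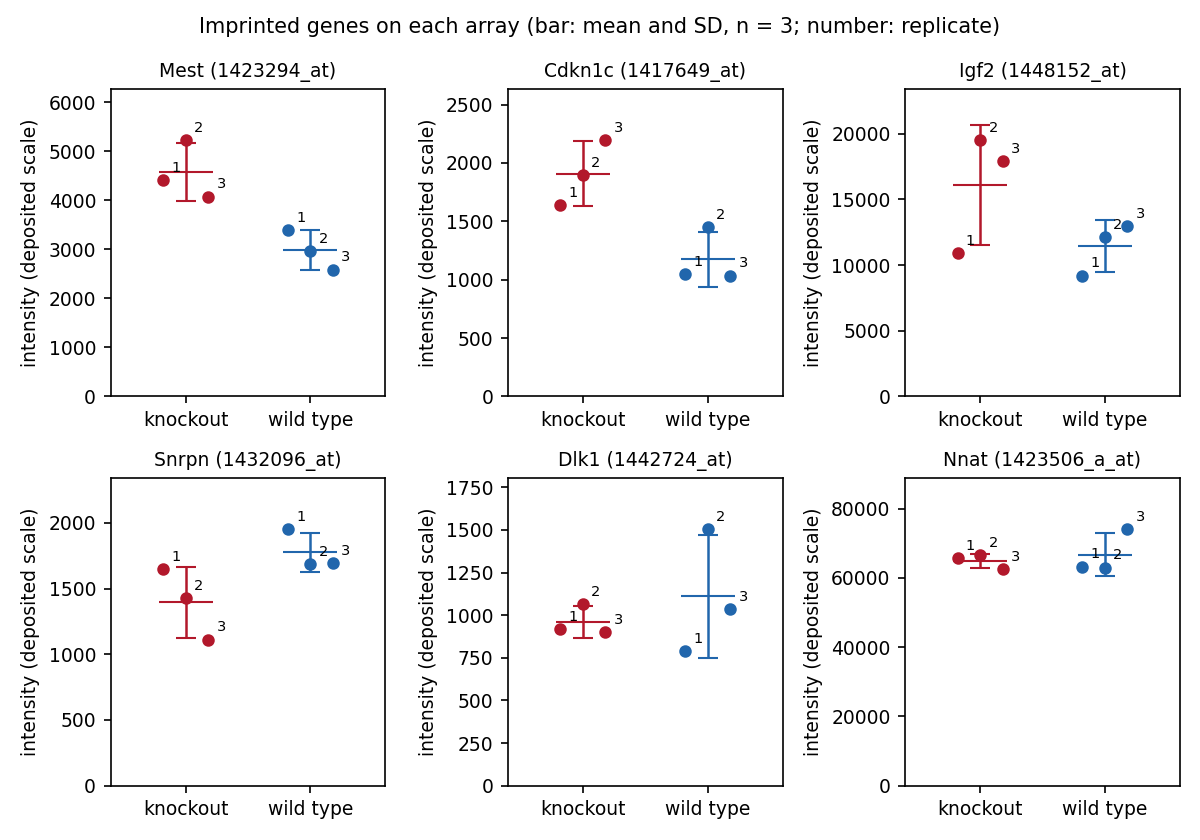
Intensity on the deposited linear scale of 6 probe sets of imprinted genes, with knockout samples left and wild-type samples right in each panel, points numbered by replicate, and bars for the mean and SD (n = 3). The points of the groups stand apart for Mest and Cdkn1c (knockout above) and for Snrpn (knockout below), and overlap for Igf2, Dlk1 and Nnat.

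Cdkn1c shares a cluster on chromosome 7 with Igf2, a growth factor that in adult brain is made chiefly by choroid plexus and leptomeninges. The brightest probe set of Igf2, 1448152_at, had 10914, 19501 and 17929 in knockout samples, against 9198, 12141 and 12951 in wild-type samples. Knockout replicate 1 lay below 2 of the wild-type values, so the groups overlapped. The log2 change was 0.47 (SE 0.19, adjusted p = 0.988 in limma), and it became 0.31 without knockout replicate 2 and 0.72 without knockout replicate 1. The other probe set, 1415931_at, was dim, at 457.9, 537.3 and 503.0 in knockout samples and 149.8, 402.6 and 414.7 in wild-type samples. Its log2 change of 0.73 (SE 0.43) became 0.28 without wild-type replicate 1. Osbpl5, an oxysterol-binding protein gene of the same cluster, had 838.8, 935.0 and 1007 in knockout samples, against 622.8, 642.3 and 689.8 in wild-type samples, with no overlap and a log2 change of 0.50 (SE 0.24). Some other genes of the cluster lay near 0. Cd81, a tetraspanin gene, had a log2 change of -0.01 (SE 0.07), Tssc4 of -0.01 (SE 0.12) and Nap1l4, a histone chaperone gene, of -0.06 (SE 0.08). Slc22a18, dim at 1417809_at, had -0.33 (SE 0.49), which became -0.62 without knockout replicate 1 and 0.12 without knockout replicate 3. The tested probe sets of Kcnq1ot1 had log2 changes of 0.08 to 0.24.

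Markers of choroid plexus and meninges, which border the hippocampus, also had higher mean values in knockout. In bulk tissue, more cells of a type and more RNA per cell cannot be told apart. Of 18 choroid plexus markers 15 were tested by their brightest probe set, 14 of them had a log2 change above 0, the median was 0.56 and 0 passed the threshold; Tmem72 did not pass the filter, and Enpp2 and Prlr were matched to no probe set here. The list's mean log2 level, relative to the 6 arrays, was -0.29, 0.56 and 0.54 in knockout samples, against -0.98, 0.04 and 0.13 in wild-type samples. Replicate 1 was the lowest of its group in both, and the groups overlapped. The summed intensity of the tested markers was 232232 to 290975 in knockout and 205878 to 296012 in wild type, and without Ttr, the transthyretin gene that dominates the sum, 39459 to 77700 in knockout and 24087 to 53249 in wild type.

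All 13 meningeal and fibroblast markers had a log2 change above 0 on their brightest probe set, with a median of 0.37 and 0 past the threshold. Their mean log2 level was -0.16, 0.39 and 0.24 in knockout samples, against -0.25, 0.05 and -0.27 in wild-type samples. Their summed intensity was 36657 to 51902 in knockout and 31160 to 41844 in wild type. No deposited value was 0 on these arrays, markers included. With the choroid plexus level as a covariate, the log2 change was 0.69 for Mest, 0.56 for Cdkn1c and 0.14 for Igf2 (1448152_at). With the meningeal level as a covariate it was 0.55 for Mest, 0.45 for Cdkn1c and 0.07 for Igf2. The marker levels themselves were higher in knockout, by 0.54 for choroid plexus and 0.31 for meninges. With these few arrays, marker level and genotype therefore cannot be fully told apart, and the covariate values are a description. The part of bordering tissue in the levels of the 3 genes was not tested.

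Markers of other cells in the tissue were given the same summary. Of the 7 oligodendrocyte markers tested, 5 had a log2 change below 0, the median was -0.13 and 0 passed the threshold. Their mean log2 level was -0.06, -0.10 and -0.03 in knockout samples, against 0.13, 0.04 and 0.01 in wild-type samples, so all knockout levels lay below the wild-type levels. Their summed intensity was 299286 to 309418 in knockout and 324009 to 346623 in wild type. At an unadjusted limma threshold of 0.05, 5 of their 20 tested probe sets were lower in knockout, Fa2h with a log2 change of -0.50 among them, where 2.21% of all tested probe sets were. At that threshold 5 of 25 choroid plexus and 6 of 23 meningeal probe sets were higher, where 2.17% of all tested probe sets were. Probe sets of a marker list share the same arrays, and several measure the same gene, so they are not independent of each other. The median log2 change was 0.07 for endothelial and mural markers, 0.06 for hypothalamus markers, -0.15 for thalamus and striatum markers, 0.05 for immature neuron markers, 0.01 for astrocyte markers and 0.06 for microglia markers. The part of these cells in the levels of the imprinted genes was not tested.

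**Figure D3:**
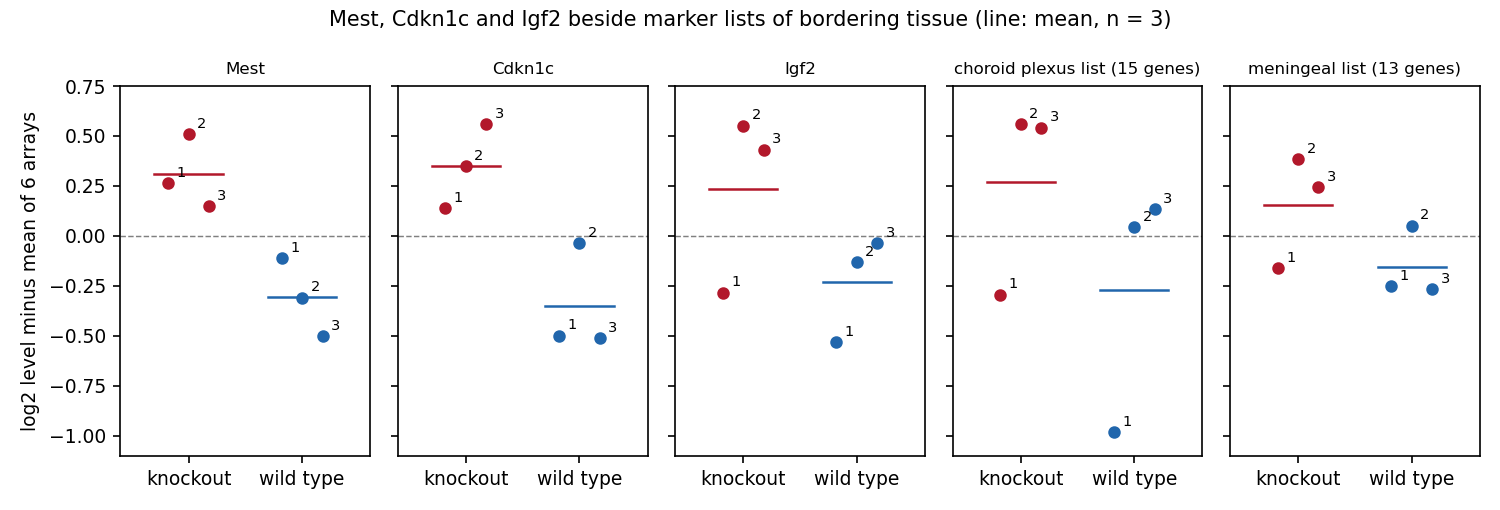
Log2 level of Mest, Cdkn1c and Igf2 (1448152_at) and mean log2 level of the 15 tested choroid plexus and 13 meningeal markers, each relative to its mean over the 6 arrays, with knockout left, wild type right, points numbered by replicate and lines for group means (n = 3). Replicate 1 is the lowest of both groups for Igf2 and the choroid plexus markers, while for Mest replicate 1 is the highest of the wild-type samples.

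Snrpn and Ndn are paternally expressed neighbours on chromosome 7, in the region whose human counterpart is affected in Prader-Willi syndrome. Snrpn encodes SmN, a spliceosome protein of neurons. Probe set 1432096_at, annotated to Snrpn alone, had 1650, 1427 and 1111 in knockout samples, against 1950, 1687 and 1695 in wild-type samples. The knockout values all lay below the wild-type values, with 1650 in the highest knockout and 1687 in the lowest wild-type sample. The log2 change was -0.36 (SE 0.19, adjusted p = 0.988 in limma), and -0.21 without knockout replicate 3. A further 6 probe sets are annotated to Snurf and Snrpn together, which share a transcript, and so are outside the group; of these, 5 were tested and had log2 changes of -0.08 to -0.02. The brightest of them, 1415895_at, had 136961, 133954 and 131199 in knockout samples, against 131860, 128800 and 154991 in wild-type samples, with overlap.

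Ndn encodes necdin, a MAGE-family protein of postmitotic neurons, and was bright on 5 probe sets with log2 changes of -0.04 to 0.05. The brightest, 1437853_x_at, had 80001, 66298 and 67492 in knockout samples, against 73505, 67247 and 76853 in wild-type samples, and the groups overlapped. The narrowest interval among the 5, that of 1455792_x_at, ran from -0.10 to 0.19 log2. The 3 probe sets of Ndn that were not tested stayed between 11.3 and 355.6 on all arrays, where the filter level was 332. Magel2, another MAGE-family gene beside Ndn, had a log2 change of 0.39 (SE 0.37), which became 0.12 without wild-type replicate 2 and 0.73 without wild-type replicate 3. Ube3a, the maternally expressed ubiquitin ligase gene of the same region, had -0.01 (SE 0.07) at its brightest probe set, 1416680_at.

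Peg3, a paternally expressed zinc-finger gene on chromosome 7, had 23028, 22723 and 23942 in knockout samples at its brightest probe set, 1433924_at, against 22512, 23523 and 22066 in wild-type samples. The groups overlapped there, with a log2 change of 0.03 and a 95% interval of -0.11 to 0.18. The other tested probe sets had log2 changes of 0.09 (1417355_at) and -0.17 (1417356_at). The dim probe set 1447732_x_at had 103.4, 185.9 and 236.7 in knockout samples, against 6.53 to 22.6 in wild-type samples. These values do not overlap, but all lie under the filter level and the probe set was not tested. Usp29, a neighbour of Peg3, had a log2 change of -0.23 (SE 0.19), which became -0.36 without knockout replicate 3 and -0.14 without knockout replicate 1.

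Plagl1 encodes the zinc-finger factor ZAC1, which is known to act on other imprinted genes. Its brightest probe set, 1426208_x_at, had 16756, 16906 and 15238 in knockout samples, against 15727, 16925 and 16272 in wild-type samples, a log2 change of -0.00 with a 95% interval of -0.16 to 0.16. The dimmer 1450533_a_at had a log2 change of 0.01 (SE 0.38) and a 95% interval of -0.83 to 0.84. Nnat encodes neuronatin, a small membrane protein abundant in neurons, and lies within an intron of Blcap. It had 65767, 66489 and 62598 in knockout samples, against 63296, 62925 and 73993 in wild-type samples, a log2 change of -0.04 (SE 0.07) with overlap. Blcap had 13025, 12626 and 10991 in knockout samples, against 13184, 14466 and 14181 in wild-type samples; the groups did not overlap, with a log2 change of -0.19 (SE 0.09, adjusted p = 0.988 in limma) that became -0.12 without knockout replicate 3.

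Grb10 encodes an adaptor that binds the insulin receptor, and is expressed from the paternal copy in neurons and from the maternal copy in most other tissues. Its 3 probe sets had log2 changes of -0.09, -0.02 and 0.08. The brightest, 1425458_a_at, had 3908, 4495 and 4949 in knockout samples, against 4751, 4412 and 4301 in wild-type samples, and the groups overlapped. Knockout replicate 1 held the lowest and knockout replicate 3 the highest of the 6 values.

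Dlk1 and Meg3 mark a cluster on chromosome 12. Dlk1, a paternally expressed transmembrane protein related to Notch ligands, was dim at probe set 1449939_s_at and brighter at 1442724_at. Probe set 1442724_at had 916.3, 1066 and 899.3 in knockout samples, against 790.0, 1503 and 1037 in wild-type samples, with overlap, and its log2 change of -0.16 (SE 0.26) became 0.08 without wild-type replicate 2. Probe set 1449939_s_at had 253.0, 280.7 and 343.4 in knockout samples, against 519.2, 578.4 and 376.5 in wild-type samples. These groups did not overlap, with a log2 change of -0.71 (SE 0.36, adjusted p = 0.988 in limma). The lowest wild-type value, 376.5, and the highest knockout value, 343.4, lie close to the filter level of 332.

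Meg3 is a long noncoding RNA expressed from the maternal copy, and its 11 probe sets were all tested. Their log2 changes ran from -0.16 to 0.10, with 1 above 0 and 10 below, and the groups overlapped for each. The brightest, 1452906_at, had 54828, 87633 and 78859 in knockout samples, against 63852, 78044 and 87545 in wild-type samples. Replicate 1 was the lowest of its group in both. That order held for all 11 probe sets of Meg3, whereas 17.5% of all tested probe sets were lowest in replicate 1 of both groups, and 0 of the 19 other tested probe sets of the imprinted group were. The probe sets of Meg3 measure 1 gene on the same arrays and are not independent of each other.

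Knockout replicate 1 lay below the mean of the other knockout samples by log2 differences of -0.86 to -0.51 over the 11 probe sets, with a median of -0.68. Wild-type replicate 1 lay below the mean of the other wild-type samples by -0.43 to -0.24, with a median of -0.35. Without knockout replicate 1, the log2 changes of Meg3 turned to 0.02 to 0.39, all above 0, and none passed the threshold. Knockout replicate 1 also had the lowest median intensity of the arrays, 541.5, and wild-type replicate 1 the lowest of the wild-type arrays, 573.8. The part of these array differences in the level of Meg3 was not tested.

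**Figure D4:**
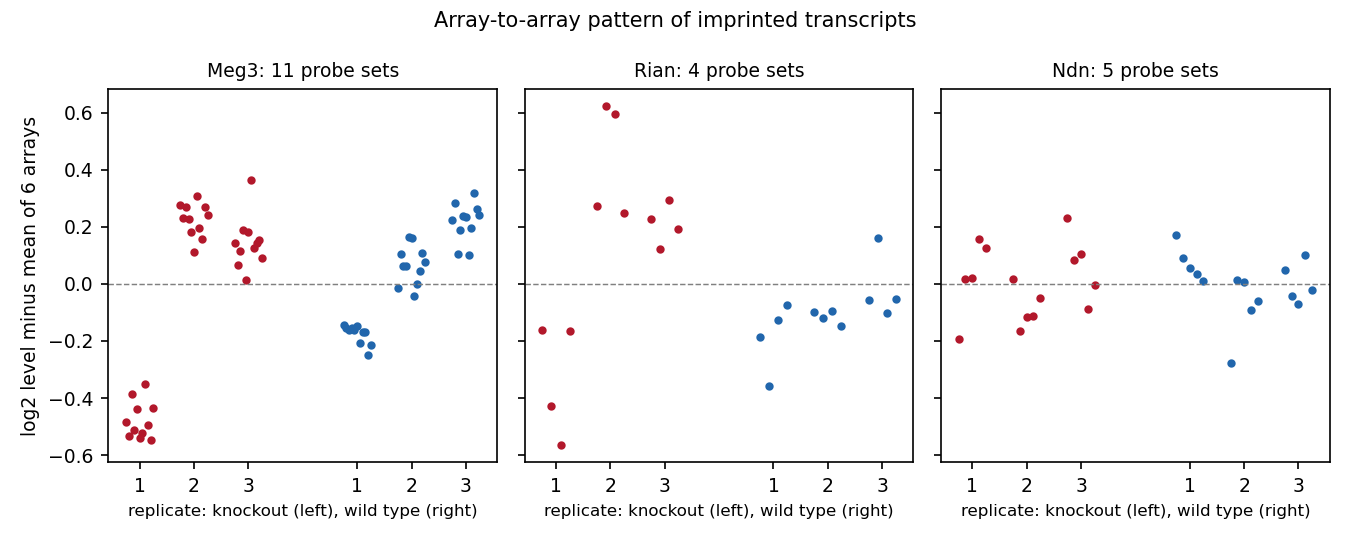
Log2 level relative to the mean of the 6 arrays for the tested probe sets of Meg3, Rian and Ndn, with knockout replicates left, wild-type replicates right, and 1 point per probe set. All 11 points of Meg3 are lowest in replicate 1 of each group, the 4 points of Rian are lowest in knockout replicate 1, and the 5 points of Ndn have no such order.

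Rian, Mirg and Kcnq1ot1, noncoding RNAs of the same clusters, were also lowest in knockout replicate 1, as were 40.3% of all tested probe sets. Rian, the maternally expressed host of small nucleolar RNAs beside Meg3, was lowest in knockout replicate 1 at 4 of 4 probe sets and lowest in replicate 1 of both groups at 3 of 4. Its brightest probe set, 1452899_at, had 24593, 32766 and 31574 in knockout samples, against 26199, 24902 and 26609 in wild-type samples, and its 4 log2 changes were 0.18 to 0.23, none past the threshold. They became -0.05 to 0.15 without knockout replicate 2 and 0.31 to 0.55 without knockout replicate 1. Mirg, the microRNA host of this cluster, was lowest in knockout replicate 1 at 2 of 2 probe sets and in both groups' replicate 1 at 0 of 2. Kcnq1ot1, the paternally expressed noncoding RNA of the Cdkn1c cluster, was lowest in knockout replicate 1 at 3 of 3 tested probe sets and in both groups' replicate 1 at 2 of 3. Its brightest probe set, 1458161_at, had 2023, 6544 and 4872 in knockout samples, against 3127, 3870 and 4477 in wild-type samples. Airn, a noncoding RNA of another cluster, was not lowest there: it had 480.3, 370.2 and 261.8 in knockout samples, against 377.8, 525.1 and 482.3 in wild-type samples.

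Beyond the 10 genes, 27 genes of the same clusters were listed, and 16 of them had 29 tested probe sets. At an adjusted limma p under 0.05, 0 of the 29 passed in either direction. At an unadjusted p under 0.05, 1 was higher (Igf2) and 1 lower (Blcap), where 2.17% of all tested probe sets were higher and 2.21% lower. Groups did not overlap for 3 of the 29 higher and 1 lower in knockout, where 4.97% of all tested probe sets lay above and 4.91% below. The median log2 change of the 29 was 0.08, with 16 above 0 and 13 below. The highest values were of dim probe sets: Igf2 at 1415931_at and Atp10a, a phospholipid flippase gene, at 0.53 and 0.62 (SE 0.43 and 0.35). Without knockout replicate 3 the 0.53 of Atp10a, at 1447272_s_at, became 0.20. Its other tested probe set, 1447851_x_at, had groups without overlap (adjusted p = 0.988 in limma). The log2 change there stayed at 0.49 to 0.69 with each array left out in turn.

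Of 26 imprinted genes in other clusters, 17 had 37 tested probe sets, and 0 passed the adjusted threshold. At an unadjusted limma p under 0.05, 1 was higher (Commd1) and 0 were lower, where 2.17% of all tested probe sets were higher and 2.21% lower. Groups did not overlap for 3 probe sets higher and 1 lower in knockout, where 4.97% of all tested probe sets lay above and 4.91% below. Their median log2 change over all 37 was 0.02, with 19 above 0 and 18 below. Commd1, a regulator of copper handling and NF-kappaB signalling, had 5803, 4835 and 5537 in knockout samples at probe set 1424122_s_at, against 4265, 4501 and 4464 in wild-type samples, with no overlap and a log2 change of 0.29 (SE 0.10, adjusted p = 0.988 in limma). Ppp1r9a, which encodes neurabin, a scaffold that binds protein phosphatase 1 in dendritic spines, had 23017, 22482 and 23084 in knockout samples at probe set 1456072_at, against 21418, 20240 and 21731 in wild-type samples. These values do not overlap, with a log2 change of 0.11 (SE 0.07, adjusted p = 0.988 in limma). Its bright probe set 1440285_at was also higher without overlap, with a log2 change of 0.08 (SE 0.06). Of the 4 tested probe sets of Ppp1r9a, 2 had a log2 change above 0 and 2 below. The lowest was -0.43 (SE 0.42) at the dim probe set 1458942_at, with overlap. Inpp5f, which encodes a phosphoinositide phosphatase, had 546.6, 374.5 and 687.3 in knockout samples at the dim probe set 1442100_at, against 961.1, 786.2 and 737.5 in wild-type samples. These values do not overlap either, with a log2 change of -0.64 (SE 0.30, adjusted p = 0.988 in limma) that became -0.42 without knockout replicate 2. The brightest probe set of Inpp5f, 1433542_at, had a log2 change of -0.09 (SE 0.08) with overlap. The largest log2 changes on a gene's brightest probe set were 0.60 for Pon3 (SE 0.54), a paraoxonase gene, and -0.33 for Airn (SE 0.37), the noncoding RNA antisense to Igf2r, both from dim probe sets. Pon3 became -0.07 without wild-type replicate 1, and Airn became -0.11 without knockout replicate 3. Dlx5, a homeobox gene, had 0.18 (SE 0.22), which became 0.07 without knockout replicate 1, and Impact, a translation regulator gene, had 0.10 (SE 0.07), which became 0.06 without knockout replicate 3.

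The profile of Mest over the 6 arrays was compared with that of 12492 other genes by the root mean square difference of log2 values, each gene centred on its own mean and represented by its brightest probe set. Since Mest was picked for its knockout and wild-type levels, likeness over all 6 arrays repeats that choice and is a description. The nearest were Psmg2 at 0.093, a proteasome assembly chaperone, Natd1 at 0.103, Fam118b at 0.105, Dlx2 at 0.116, a homeobox factor of forebrain interneuron precursors, and Polh at 0.117, a DNA polymerase that copies past ultraviolet damage, where the median over genes was 0.379. Psmg2 had 3822, 4977 and 4264 in knockout samples, against 3547, 2848 and 2589 in wild-type samples. The groups did not overlap, with knockout replicate 2 highest as for Mest. None of these 5 genes is on chromosome 6, where Mest lies.

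Of the imprinted genes, only the others of the group and Igf2 were ranked, and they lay further from Mest. In this comparison, which holds the difference Mest was picked for, Cdkn1c was the nearest of them, at rank 845 with a difference of 0.269, followed by Peg3 at rank 3348 and Plagl1 at rank 3815; Igf2 was at rank 5359. With knockout and wild type centred apart, which removes the difference between the groups, the 5 nearest genes were Natd1, Rhbdf1, Wdr5b, 5031439G07Rik and Lztfl1. In that comparison Cdkn1c was at rank 9140, with a difference of 0.266 against a median over genes of 0.204, and Igf2 at rank 10927. The nearest genes of the group were Plagl1 at rank 2203 and Snrpn at rank 3135. Of the 5 nearest genes, Natd1 also had groups without overlap, and was among the 5 nearest in both comparisons. With so few arrays many genes lie close together, and likeness over 6 values says nothing of shared function or control.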

How the data were processed

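Total RNA of mouse hippocampus was measured in 3 inhibitor-1 knockout and 3 wild-type samples, grouped by the labels. The authors deposited 1 linear intensity per probe set and array; their software is not given here. Values were transformed as log2(intensity + 16). The 64 control probe sets and the 40% with the lowest mean over all arrays (an intensity of about 332) were left out, and 26999 remained. Knockout was set against wild type in limma 3.58.1 (R 4.3.3) with group alone in the model, eBayes with a trend on intensity and two-sided p, and Benjamini-Hochberg adjustment over all of them. The 10 genes, the 13 gene lists and the tests were chosen with earlier results of these data known.

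Named are all 10 genes, Ppp1r1a, genes of the same imprinted clusters, in other clusters the 6 with the largest change on the brightest probe set and those without overlap, and the 5 nearest to Mest. Names come from the platform annotation; promoters come from RefSeq (GRCm38.p6). The fit was tested on simulated data. Alternatives were other pseudocounts (1 and 64), filters, scalings, a variance model without trend, weighted arrays, the replicate number as a block, marker levels as covariates, and leaving out arrays. The number of arrays limits the precision.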

Additional observations from a re-analysis of the deposited data

How the results depend on the processing

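None of the probe sets of the 9 genes other than Mest, and none of the other imprinted genes, passed the threshold under any of the 18 alternatives. For the 29 probe sets other than that of Mest, the lowest adjusted p over 522 comparisons was 0.186, and the sign of the log2 change turned in 74 of them, in 23 of the 29 probe sets. For the 66 probe sets of other imprinted genes, the lowest was 0.0524 and the sign turned in 126 of 1188 comparisons. The log2 change of Mest stayed between 0.51 and 0.73, and that of Cdkn1c between 0.45 and 0.86 with adjusted p of 0.229 to 1. The median of the 30 probe sets was -0.17 with the choroid plexus level and -0.22 with the meningeal level as covariate; the cause was not tested. Over all alternatives the median of all tested probe sets stayed between -0.02 and 0.02.

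Of all tested probe sets, 3 passed, 0 higher and 3 lower. Without an intensity trend 1 passed, which was lower. With the choroid plexus level as covariate 5 passed, 1 of them higher. Without replicate 1 of both groups 14 passed, 7 higher and 7 lower. Leaving out each array in turn gave 3 to 5 calls, with 0 to 2 higher and 3 to 4 lower, and the 5 and the 2 higher came without knockout replicate 1. The causes of these differences were not tested.

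Both groups carry replicate numbers 1 to 3, and no label says that a number marks a shared litter or day. The deviations of same-numbered samples from their group means correlated at 0.241, 0.0542 and 0.0998, and knockout replicate 2 correlated best with wild-type replicate 3, at 0.11, so the numbers were not taken as pairs. With the replicate number as a block 11 probe sets passed, 7 of them higher, and none of these was of the 9 genes or the other imprinted genes; the log2 change of Cdkn1c had an adjusted p of 0.646 there. Dim probe sets, such as 1449939_s_at of Dlk1, have wide intervals, which limits what they can show.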
